A study of Mus musculus with 35 samples.

Results

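Regulatory T cells (Tregs) sorted from mouse spleen at lights-off, Zeitgeber time (ZT) 12, were compared with Tregs sorted at lights-on, ZT0. The comparison used the 6 spleen libraries whose labels give these times, 3 per time, of 35 libraries in the series. All animals were wild-type male C57BL/6 retired breeders over 35 weeks of age, kept under 12 hours of light and 12 hours of dark, and no group received a treatment. The other libraries were Tregs from spleen at ZT4, ZT8, ZT16 and ZT20 and from visceral adipose tissue (VAT) at all 6 times. Each library was made from 1000 CD4+ CD25+ cells, so the population is defined by its surface proteins and not by a Foxp3 reporter. Nothing in the labels ties a replicate to its own animal, so the spread behind each p-value is that of the samples and could be technical.

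Tregs are CD4 T cells that restrain immune responses and depend on the transcription factor Foxp3. Most mouse cells carry a molecular clock in which Clock and Arntl (BMAL1) drive their own repressors of the Per and Cry families, and the adrenal hormone corticosterone adds a daily rhythm that peaks around lights-off in nocturnal rodents. Glucocorticoid receptor targets, heat shock genes and cold-inducible genes are known to vary over the day in many tissues.

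Counts assigned to genes totalled 2645627 to 2858234 per library at ZT12 and 2841609 to 3950139 at ZT0. Library D of ZT12 had a count for 26167 genes, against 21580 and 22298 in the other ZT12 libraries and 20744 to 23655 at ZT0. Mitochondrial transcripts made up 1.64% to 2.11% of counts at ZT12 and 1.30% to 1.52% at ZT0, without overlap. Foxp3 averaged 496 ± 4.03 counts per 1000000 after TMM scaling (CPM) at ZT12 and 536 ± 23.7 CPM at ZT0 (SD, n = 3 each). Il2ra, which encodes CD25, averaged 355 CPM at ZT12 and 348 CPM at ZT0, and Cd4 averaged 427 CPM at ZT12 and 418 CPM at ZT0. None of these 3 genes passed the test described next. Of 12 lists of markers of other cell types, the summed level overlapped between the times in all but the macrophage or monocyte list. The highest sum was that of 10 B cell markers, with 1458 to 1860.5 CPM at ZT12 and 1489.6 to 1917 CPM at ZT0, nearly all of it Ighm. Ms4a1 and Pax5 stayed below 5 CPM in every library, with Ms4a1 highest in ZT12 library D at 4.39 CPM. Cd79b was present in every library, at 20.1 to 38.4 CPM at ZT12 and 16.7 to 38.3 CPM at ZT0.

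Of 15910 genes tested, 13 differed between ZT12 and ZT0 at an adjusted p under 0.05 in edgeR's quasi-likelihood test with Benjamini-Hochberg adjustment over all genes, 0.0817% of those tested. The 9 genes that rose (0.0566%) were Tsc22d3, Cirbp, Dusp1, Xxylt1, Zfp36l2, Il7r, Cd69, Serinc3 and Rbm3. The 4 that fell (0.0251%) were Slc40a1, Rsrp1, Calr and the pseudogene Gm8995. In all 13 the ZT12 and ZT0 libraries did not overlap, which was also so for 1286 genes with ZT12 above (8.08%) and 1287 with ZT12 below (8.09%). At an unadjusted p under 0.05, 735 genes were higher (4.62%) and 538 lower (3.38%), and 52.2% of all genes had a positive log2 fold change.

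**Figure D1:**
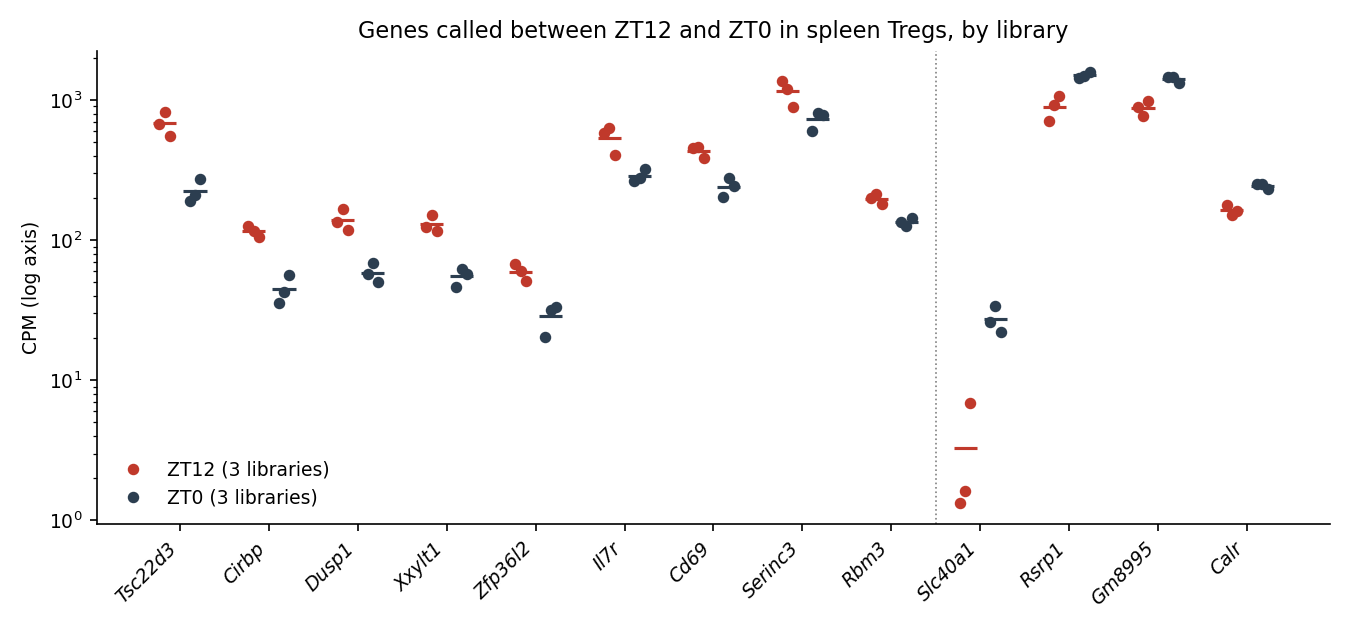
CPM on a log axis of the 13 genes that passed the test, in each ZT12 library (red, left of each pair) and each ZT0 library (dark, right), with the mean as a bar. Genes left of the dotted line were higher at ZT12, and in no gene do the colours overlap.

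**Figure D2:**
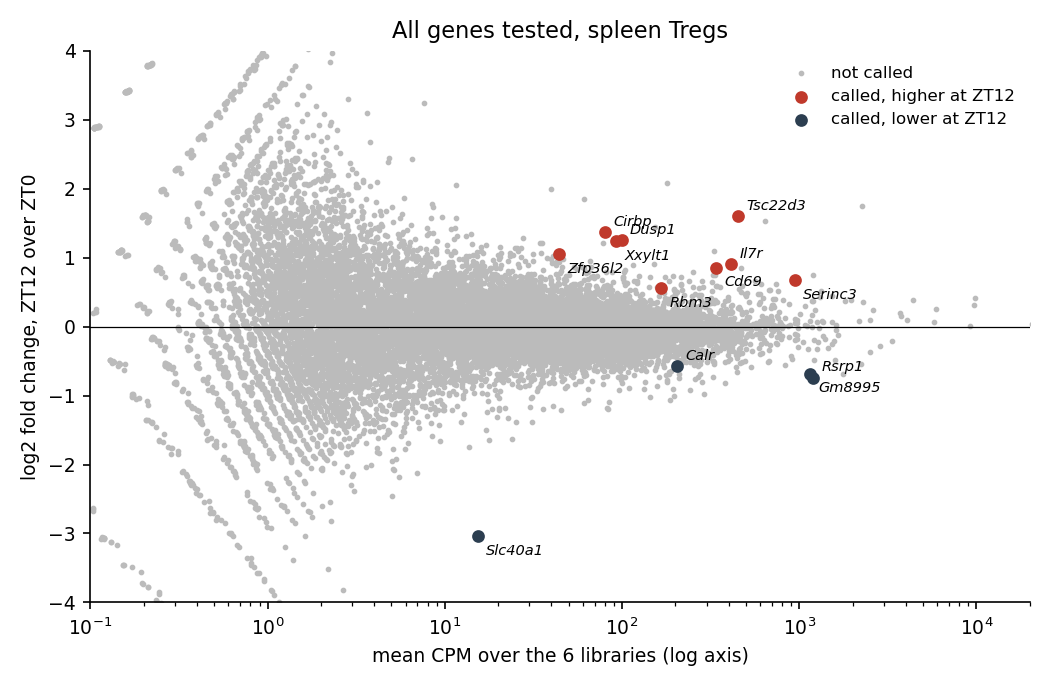
Log2 fold change, ZT12 over ZT0, of all genes tested against mean CPM over the 6 libraries (log axis), with the genes that passed coloured and named; 199 points lie outside the axes. All but 1 of the coloured genes lie above 40 CPM, and Slc40a1 is the exception.

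The calls differed in how far they depended on single libraries. Tsc22d3, Dusp1, Cirbp and Il7r passed whichever of the 6 libraries was left out, and Rsrp1 passed in 5 of 6 leave-outs, failing without ZT12 library A. Cd69 passed in 2 of 6, without ZT0 library B or without ZT12 library D. Xxylt1, Zfp36l2, Serinc3, Rbm3, Slc40a1 and Gm8995 passed in 1 of 6, without ZT12 library D. Calr passed in none. All 13 kept their direction in every leave-out.

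The promoters of genes discussed here were read from RefSeq (GRCm38.p6), from 250 bases before to 50 after the transcription start, to show which known response motifs they contain. Of the 13 called genes, 8 had an entry. The 3 printed are the called genes with a match to a cyclic AMP element or to the glucocorticoid receptor motif, and Chordc1, the heat shock gene with the smallest p. Capitals mark the matches.
Dusp1 (chr17:26508423-26508722, minus strand): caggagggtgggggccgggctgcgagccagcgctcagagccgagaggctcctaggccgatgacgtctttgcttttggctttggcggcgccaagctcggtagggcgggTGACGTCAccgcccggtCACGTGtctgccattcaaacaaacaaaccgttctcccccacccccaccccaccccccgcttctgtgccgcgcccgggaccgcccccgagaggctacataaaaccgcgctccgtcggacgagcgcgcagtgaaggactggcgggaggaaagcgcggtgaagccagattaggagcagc
Serinc3 (chr2:163645094-163645393, minus strand): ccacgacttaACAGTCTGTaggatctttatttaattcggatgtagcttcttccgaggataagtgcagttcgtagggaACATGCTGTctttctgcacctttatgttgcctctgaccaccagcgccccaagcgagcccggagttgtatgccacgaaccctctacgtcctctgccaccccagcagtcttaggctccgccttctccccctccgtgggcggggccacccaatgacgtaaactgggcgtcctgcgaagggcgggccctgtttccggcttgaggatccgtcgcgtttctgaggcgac
Chordc1 (chr9:18292017-18292316, plus strand): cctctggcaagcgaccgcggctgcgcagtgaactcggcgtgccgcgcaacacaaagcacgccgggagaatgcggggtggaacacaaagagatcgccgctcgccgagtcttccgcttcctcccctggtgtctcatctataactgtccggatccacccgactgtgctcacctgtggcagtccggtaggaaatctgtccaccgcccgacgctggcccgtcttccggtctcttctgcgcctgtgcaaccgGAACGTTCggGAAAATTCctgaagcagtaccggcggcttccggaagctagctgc

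Both strands were searched. Dusp1 has the cyclic AMP element TGACGTCA at -143 and the E-box CACGTG, the sequence bound by CLOCK and BMAL1, at -126 from its start. Serinc3 has the glucocorticoid receptor palindrome ACANNNTGT at -240 and -173, and Chordc1 has paired heat shock units GAANNTTC at -4 and 6. Of 32851 promoters of this length, 1.79% hold the cyclic AMP element, 7.15% the E-box, 6.85% the receptor palindrome and 7.86% the heat shock units. Calr also has an E-box, and no called gene with an entry matched the D-box TTANGTAA or the ROR/REV-ERB element TAGGTCA. Serinc3 was the only called gene with the receptor palindrome, which was absent from the entries of Tsc22d3, Dusp1 and Il7r. A match is a description of the letters in this window and not evidence of binding.

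The glucocorticoid-responsive genes held the call with the smallest p. Tsc22d3 (chrX:140539528-140600659) encodes GILZ, a leucine zipper protein induced by glucocorticoids. Its level was 672, 819 and 558 CPM in ZT12 libraries A, B and D, against 189, 209.6 and 275 CPM in ZT0 libraries A, B and C. Every ZT12 library was above every ZT0 library, and the log2 fold change was 1.60 ± 0.19 (SE; edgeR adjusted p = 2.06e-05). Dusp1 (chr17:26505590-26562128), a phosphatase that switches off MAP kinases, had 135, 168 and 118 CPM at ZT12, against 57.1, 69.0 and 50.1 CPM at ZT0. Its groups were separate too, with a log2 fold change of 1.26 ± 0.17 (edgeR adjusted p = 1.85e-04).

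Il7r (chr15:9505788-9530176), the interleukin-7 receptor chain and a known glucocorticoid target in T cells, had 578, 635 and 403 CPM at ZT12, against 263, 278 and 321 CPM at ZT0. The lowest ZT12 library, D, was above the highest ZT0 library, with a log2 fold change of 0.91 ± 0.14 (edgeR adjusted p = 6.97e-04). These were the only 3 of 15 glucocorticoid-responsive genes to pass in edgeR, all higher. DESeq2 called 5 of the 12 with an adjusted p, against 74 of 4189 among all genes. The list's median log2 fold change was 0.53, against 0.02 over all genes, and 7 of 15 members (46.7%) were higher at an unadjusted p under 0.05, against 4.62% of all genes. This and the other gene lists were written with earlier results of these data known. Such shares therefore describe the lists and are not independent support. Pik3ip1, an inhibitor of PI3 kinase, averaged 320 ± 69.2 CPM at ZT12 and 185 ± 12.3 CPM at ZT0 and missed the threshold (edgeR adjusted p = 0.0857). Fkbp5, a co-chaperone of the glucocorticoid receptor, averaged 37.5 ± 8.26 CPM at ZT12 and 19.3 ± 1.23 CPM at ZT0 (edgeR adjusted p = 0.121). The receptor gene itself, Nr3c1, averaged 138 ± 16.04 CPM at ZT12 and 145 ± 13.1 CPM at ZT0, and its groups overlapped.

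Of the cold-inducible list, Cirbp and Rbm3, both RNA-binding proteins, rose and the third member did not pass. Cirbp (chr10:80165985-80172786) had 127, 116 and 105 CPM at ZT12, against 35.7, 42.5 and 56.5 CPM at ZT0. Its log2 fold change was 1.37 ± 0.21 (edgeR adjusted p = 6.97e-04), and the groups were far apart. Rbm3 (chrX:8138975-8145880) had 201, 212 and 179.9 CPM at ZT12, against 134, 125 and 143 CPM at ZT0. Its log2 fold change was smaller, 0.56 ± 0.12 (edgeR adjusted p = 0.0436). An antisense gene, Rbm3os, overlaps Rbm3, and whether the counting used strand is not given in the sources used here. Srsf5, a splicing factor and the remaining member of this 3-gene list, averaged 385 ± 23.5 CPM at ZT12 and 442 ± 27.3 CPM at ZT0 and did not pass.

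Other genes that rose were Cd69, Zfp36l2, Xxylt1 and Serinc3. Cd69 (chr6:129267325-129275436), an early activation marker that limits exit of T cells from tissue, had 456, 465 and 383 CPM at ZT12, against 203, 276 and 242 CPM at ZT0. The log2 fold change was 0.85 ± 0.16 (edgeR adjusted p = 0.0206), and all ZT12 values were above all ZT0 values. Zfp36l2 (chr17:84183931-84187947), which binds AU-rich elements and promotes mRNA decay, had 67.1, 59.9 and 51.4 CPM at ZT12, against 20.5, 32.0 and 33.3 CPM at ZT0. This amounted to a log2 fold change of 1.05 ± 0.21 (edgeR adjusted p = 0.0282).

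Xxylt1 (chr16:30955144-31081432), a xylosyltransferase that extends sugars on Notch-type repeats, had 124, 152 and 116 CPM at ZT12, against 46.2, 62.1 and 57.4 CPM at ZT0. The lowest ZT12 library, D, was above the highest ZT0 library, B, with a log2 fold change of 1.24 ± 0.23 (edgeR adjusted p = 0.0163). Serinc3 (chr2:163623272-163645131), a membrane protein of the serine incorporator family, had 1366, 1207 and 898 CPM at ZT12, against 599, 807 and 777 CPM at ZT0. Its log2 fold change was 0.67 ± 0.14 (edgeR adjusted p = 0.0482, the largest among the 13). Annotated genes overlap Dusp1 (among them Ergic1 on the other strand), Xxylt1, Serinc3 and Zfp36l2, whose reads could be shared with theirs. Of 18 activation and effector genes, Cd69 alone passed in edgeR. DESeq2 called 2 of the 17 with an adjusted p, against 74 of 4189 among all genes.

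Among the falls, Rsrp1 (chr4:134923592-134927671) had 705, 928 and 1063 CPM at ZT12, against 1444, 1478 and 1578 CPM at ZT0. Its log2 fold change was -0.74 ± 0.12 (edgeR adjusted p = 0.00174). Calr (chr8:84841850-84846934), the chaperone calreticulin of the endoplasmic reticulum, had 179.5, 152 and 161 CPM at ZT12, against 250.2, 252 and 232 CPM at ZT0. It fell by 0.57 ± 0.12 on the log2 scale (edgeR adjusted p = 0.0282) and was the only member of the 18-gene unfolded protein response list to pass in edgeR. DESeq2 called 2 of the 14 members with an adjusted p, against 74 of 4189 among all genes. Gm8995 (chr7:106504239-106511671), annotated as a transcribed unprocessed pseudogene and so named outside the rule for choosing genes, had 893, 768 and 985 CPM at ZT12, against 1463, 1450.4 and 1331 CPM at ZT0. Its log2 fold change was -0.68 ± 0.14 (edgeR adjusted p = 0.0282), and reads shared with similar copies leave its level uncertain.

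Slc40a1 (chr1:45908068-45926523), the iron exporter ferroportin, known from macrophages, showed the lowest fold change among the called genes. It had 4, 5 and 22 reads at ZT12, or 1.33, 1.63 and 6.89 CPM, against 84, 142 and 97 reads at ZT0, or 26.05, 33.9 and 22.3 CPM. The log2 fold change was -3.04 ± 0.64 (edgeR adjusted p = 0.0459). DESeq2 gave it a log2 fold change of -3.05 with an unadjusted p of 3.46e-07 and no adjusted p. The summed level of 11 macrophage or monocyte markers was 49.2 to 65.4 CPM at ZT12 and 68.2 to 100.2 CPM at ZT0, without overlap. The members differed in direction. Of 10 tested, 6 had a negative and 4 a positive log2 fold change. Their median was -1.09, against 0.02 over all genes. At an unadjusted p under 0.05 in edgeR, 2 of the 10 were lower (20%, against 3.38% of all genes) and none higher. All ZT12 libraries lay below all ZT0 libraries in 2 of the 10, against 8.09% of all genes. None of the 11 was at 0 in all libraries, although Fcgr1 was at 0 in all ZT12 libraries. Their part in the Slc40a1 result was not tested. In bulk samples, fewer cells of a type and less RNA per cell cannot be told apart.

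The core clock list had no member past the threshold among 19 genes, and its median log2 fold change was 0.27. DESeq2 gave an adjusted p to 5 of the 19 and called none of those. In edgeR 3 members (15.8%) were higher at an unadjusted p under 0.05, against 4.62% of all genes. Dbp, a D-box activator under direct clock control, had 8.34, 20.2 and 18.8 CPM at ZT12, against 4.03, 4.77 and 8.73 CPM at ZT0. The groups overlapped, with a log2 fold change of 1.41 ± 0.41 (edgeR adjusted p = 0.230). Per1, a clock repressor, had 27.0, 32.6 and 32.0 CPM at ZT12, against 23.6, 18.4 and 21.6 CPM at ZT0, with groups that did not overlap but an edgeR adjusted p of 0.318. Nr1d1 (REV-ERBα) had 4.005, 12.1 and 2.82 CPM at ZT12, against 0.93, 4.30 and 2.99 CPM at ZT0 (edgeR adjusted p = 0.493).

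Among the activators, Arntl averaged 49.7 ± 1.93 CPM at ZT12 and 54.9 ± 5.34 CPM at ZT0, and Clock averaged 47.3 CPM at ZT12 and 52.2 CPM at ZT0. Of the repressors, Cry1 averaged 67.3 ± 4.16 CPM at ZT12 and 52.7 ± 8.43 CPM at ZT0, without overlap. Cry2 averaged 29.2 CPM at ZT12 and 32.8 CPM at ZT0, and Per2 averaged 10.8 ± 5.12 CPM at ZT12 and 7.32 ± 2.35 CPM at ZT0. Except for Cry1, these values of activators and repressors were within or near the spread between libraries. Per3, a further repressor, had a log2 fold change of -0.01. The nuclear receptors Nr1d2 and Rora had log2 fold changes of -0.06 and 0.26. Tef and Hlf, D-box activators like Dbp, had 0.27 and 1.36, and Nfil3, which represses the same sites, had -0.78. Ciart, Bhlhe40 and Bhlhe41, further repressors of the clock, had 1.00, -0.45 and -2.09, and Npas2, a Clock relative, had 2.76, with Npas2 and Bhlhe41 resting on less than 3 CPM in every library. Hlf and Ciart were low too, with at most 6.19 and 6.51 CPM at ZT12 and ZT0, and the groups of both overlapped. None of these clock genes passed the test.

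**Figure D3:**
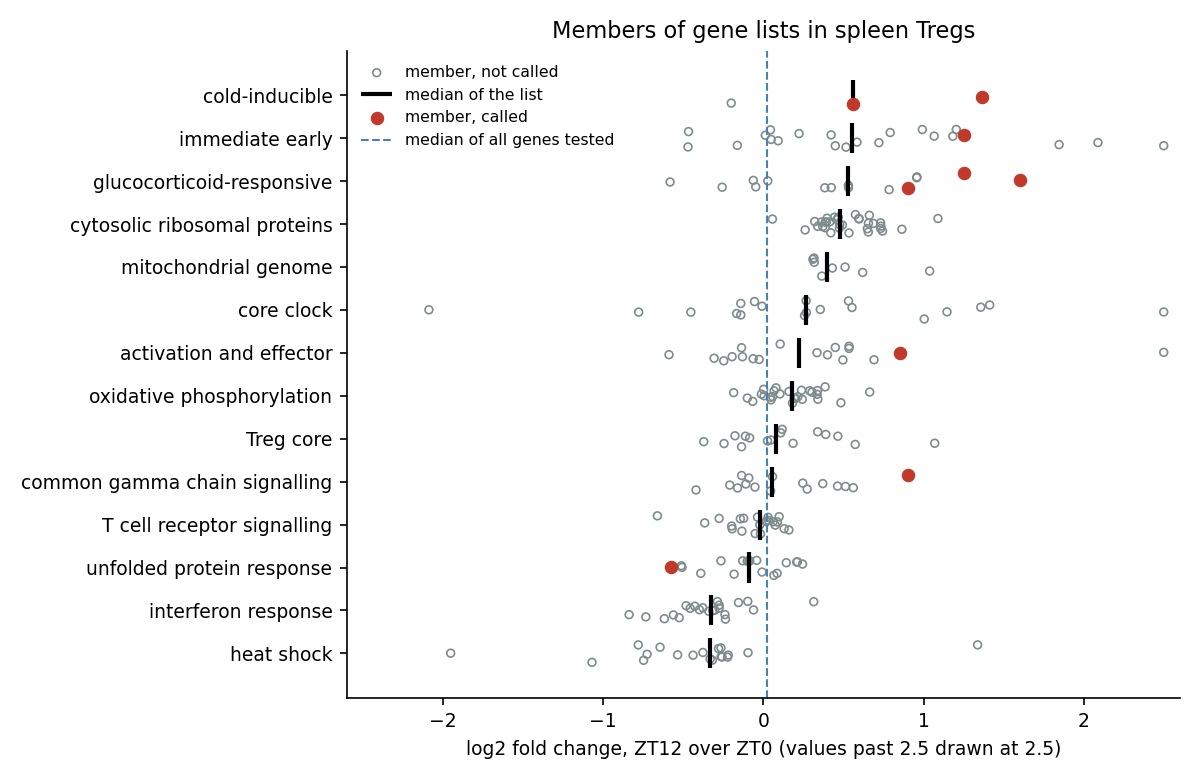
Log2 fold change, ZT12 over ZT0, of each tested member of 14 gene lists (open circles not called, red called), with the list median as a black bar and the median of all genes tested, 0.02, as a dashed line. Values past 2.5 are drawn at 2.5; the ribosomal protein members all lie right of 0 and all but 1 heat shock member lies left of it.

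Immediate early genes respond within minutes to signals at the cell surface, and most had a positive fold change. In edgeR Dusp1 alone passed of 22 tested, the list's median log2 fold change was 0.55, and 19 members were positive. DESeq2 called 3 of 16 with an adjusted p, against 74 of 4189 among all genes. At an unadjusted p under 0.05, 8 of 22 were higher (36.4%, against 4.62% of all genes) and none lower. In VAT the list's median over the same times was -0.02. Nr4a3, a nuclear receptor induced by T cell receptor signals, averaged 7.97 ± 2.88 CPM at ZT12 and 3.54 ± 1.03 CPM at ZT0 (edgeR adjusted p = 0.188). Klf2, which maintains T cell trafficking receptors, averaged 28.3 ± 4.14 CPM at ZT12 and 13.4 ± 2.93 CPM at ZT0 (edgeR adjusted p = 0.295). Junb, an AP-1 subunit, averaged 456 ± 21.3 CPM at ZT12 and 341 ± 35.1 CPM at ZT0 (edgeR adjusted p = 0.295).

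Heat shock genes, which encode chaperones of protein folding, mostly had negative fold changes. None of 19 passed in edgeR, 18 were negative, and the median log2 fold change was -0.33. At an unadjusted p under 0.05, 8 (42.1%) were lower, against 3.38% of all genes. DESeq2 called 5 of 13 with an adjusted p, against 74 of 4189 among all genes. Chordc1, a co-chaperone of HSP90, had 121, 118 and 124 CPM at ZT12, against 239, 209 and 153 CPM at ZT0. The ZT12 libraries were tightly grouped below a wide ZT0 range, with an edgeR adjusted p of 0.0832. Hsp90ab1, the constitutive cytosolic HSP90, averaged 1822 ± 148 CPM at ZT12 and 2641 ± 321 CPM at ZT0 (edgeR adjusted p = 0.119). Hsph1, a nucleotide exchange factor of HSP70, averaged 119.7 ± 18.2 CPM at ZT12 and 252 ± 93.7 CPM at ZT0. The near-identical copies Hspa1a and Hspa1b were under 3 CPM in every library.

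Further genes were lower in all 3 ZT12 libraries than in any ZT0 library without passing in edgeR. Mat2a, which makes S-adenosylmethionine, averaged 272 ± 24.9 CPM at ZT12 and 382 ± 15.1 CPM at ZT0 (edgeR adjusted p = 0.113). Hsp90b1, the HSP90 of the endoplasmic reticulum, averaged 316 ± 30.6 CPM at ZT12 and 451 CPM at ZT0. Lman2l, a cargo receptor of the secretory pathway, averaged 25.4 ± 1.20 CPM at ZT12 and 56.2 ± 1.69 CPM at ZT0. Dcaf1, a substrate receptor of a ubiquitin ligase, averaged 44.8 ± 7.11 CPM at ZT12 and 83.9 ± 6.38 CPM at ZT0, and Hivep2, a zinc finger transcription factor, averaged 98.6 CPM at ZT12 and 173 ± 13.4 CPM at ZT0.

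Cytosolic ribosomal protein genes, the structural parts of the translating ribosome, all had positive fold changes, none past the threshold. None of 33 members, which include the elongation factors Eef1a1 and Eef2, passed in edgeR. Of the 33, 31 had all ZT12 libraries above all ZT0 libraries, against 8.08% of all genes, and 30 (90.9%) were higher at an unadjusted p under 0.05. The median log2 fold change was 0.48, and in VAT over the same times it was -0.01. Rps20 had 644, 819.5 and 600.5 CPM at ZT12, against 421, 428 and 460.4 CPM at ZT0 (edgeR adjusted p = 0.121). Rpl41 averaged 243 ± 55.2 CPM at ZT12 and 146 ± 8.07 CPM at ZT0 (edgeR adjusted p = 0.130). The number of members called was 17 in a fit to the 6 libraries alone and 6 in DESeq2, all higher. It was 12, all higher, with each library's slope on transcript length as a covariate. Of all genes, 0.718% were called higher in the fit to the 6 libraries, 1.12% in DESeq2 and 0.283% with the slope covariate.

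The part of transcript length in this result was not tested beyond the covariate. The list's members have a median transcript length of 1248 bases, against 3065 over all genes, and the quartile of shortest genes had a median log2 fold change of 0.10 and that of the longest -0.05. For each library a slope on log2 transcript length was fitted to log2 CPM relative to each gene's mean over all spleen libraries. This slope was 0.05, -0.03 and 0.05 in ZT12 libraries A, B and D, against 0.02 to 0.04 at ZT0. The members' mean log2 CPM, relative to their mean over all spleen libraries, was 0.10, 0.45 and 0.12 in ZT12 libraries A, B and D, against -0.34 to -0.22 at ZT0. Library B was thus lowest in slope and highest in ribosomal level, while A and D lay above every ZT0 library in both. With the slope of each library as a covariate the list's median was 0.46. Many ribosomal protein genes have processed pseudogenes that can share reads, so single members are uncertain. Of 13 listed genes of the mitochondrial genome 8 passed the filter on low counts and were tested. Their fold changes were positive, with a median of 0.40 on the log2 scale, none passed, and 5 were higher at an unadjusted p under 0.05, against 4.62% of all genes.

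Interferon response genes had 21 of 22 negative fold changes and a median of -0.33, with none past the threshold and 2 lower at an unadjusted p under 0.05 (9.09%, against 3.38% of all genes). Their mean log2 CPM, relative to all spleen libraries, was 0.28, -0.22 and -0.37 in ZT12 libraries A, B and D. At ZT0 it was 0.10 to 0.40, so library A lay within the ZT0 range. Of the Treg core list, none of 16 genes passed in edgeR, nor any of the 15 to which DESeq2 gave an adjusted p. At an unadjusted p under 0.05, 4 were higher and 1 lower (25% and 6.25%, against 4.62% and 3.38% of all genes). Ebi3, a subunit of interleukin-35, averaged 22.3 ± 0.91 CPM at ZT12 and 10.7 ± 3.35 CPM at ZT0 (edgeR adjusted p = 0.159), and had an unadjusted p of 0.000141 and no adjusted p in DESeq2. Ctla4, an inhibitory receptor, averaged 451 ± 45.8 CPM at ZT12 and 344 ± 35.6 CPM at ZT0 (edgeR adjusted p = 0.350). In common gamma chain signalling Il7r alone of 16 passed in edgeR, while DESeq2 called 3 of 16, against 74 of 4189 among all genes. Il2rb, the shared beta chain of the interleukin-2 and interleukin-15 receptors, averaged 890 ± 49.6 CPM at ZT12 and 624 ± 41.8 CPM at ZT0, and Cish, a target of STAT5, averaged 323 ± 2.41 CPM at ZT12 and 234 ± 12.5 CPM at ZT0; neither passed in edgeR.

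Fatty acid oxidation genes were positive in 15 of 18, with Acaa2, a mitochondrial thiolase, at 126 ± 7.03 CPM at ZT12 and 76.9 ± 4.84 CPM at ZT0 (edgeR adjusted p = 0.0583). Ucp2, a mitochondrial carrier, averaged 736 ± 108 CPM at ZT12 and 480.4 ± 26.9 CPM at ZT0 (edgeR adjusted p = 0.143). Both passed in DESeq2 (DESeq2 adjusted p = 0.00392 for Acaa2 and 0.0257 for Ucp2). DESeq2 called 2 of 13 fatty acid oxidation genes with an adjusted p, against 74 of 4189 among all genes. No gene passed in edgeR in the lists of sterol synthesis (22 tested), fatty acid synthesis (10), oxidative phosphorylation (27), glycolysis (16), proliferation (22), amino acid stress (15), oxidative stress (16) or ribosome biogenesis (19), nor among those of their members with an adjusted p in DESeq2. At an unadjusted p under 0.05 these lists had 0, 0, 2, 1, 2, 0, 2 and 2 members, in that order, where the share of all genes was 4.62% higher and 3.38% lower. Among proliferation genes, Mki67 averaged 12.9 ± 4.99 CPM at ZT12 and 7.57 ± 3.45 CPM at ZT0, with overlap.

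Over the 6 spleen times, ZT12 held the most extreme mean in its direction for 10 of the 13 genes, ZT0 that at the other end for 11, and both for 8. The genes were chosen on these very times, which favours such a pattern. Tsc22d3 averaged 225, 306, 424, 683, 499 and 346 CPM at ZT0, 4, 8, 12, 16 and 20, a climb to ZT12 and a decline after it. Dusp1 followed a like course, with 58.7, 62.0, 72.3, 140.2, 110.4 and 95.3 CPM. Cirbp differed, with 44.9, 134, 129, 116, 63.9 and 123 CPM, so that ZT0 and ZT16 were the low times. Rbm3 was likewise lowest at ZT0 and next lowest at ZT16, with 134, 202, 209.9, 198, 149 and 168 CPM. Rsrp1 was highest at ZT0 and lowest at ZT12, with 1499.9, 1201, 1159, 898, 1309.9 and 1259 CPM.

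**Figure D4:**
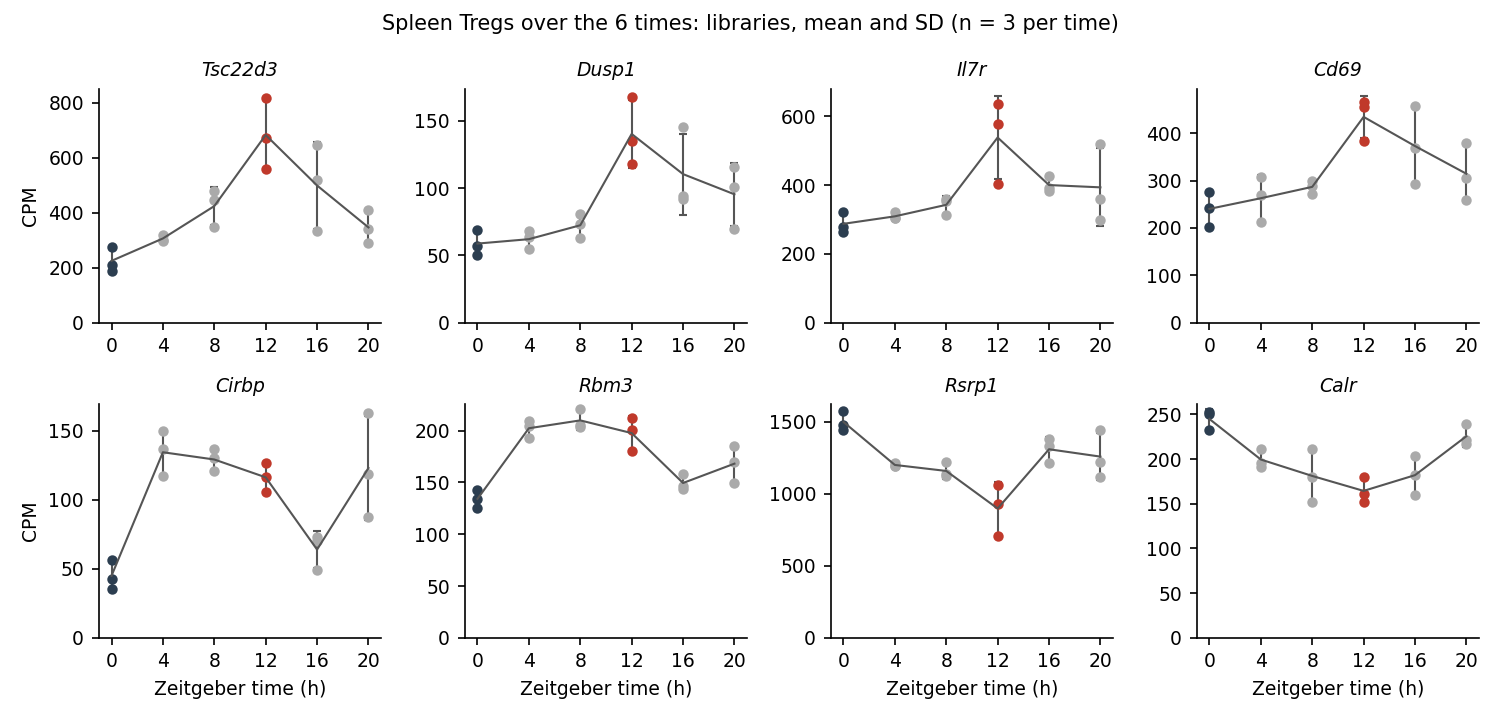
CPM of 8 called genes in spleen Tregs against Zeitgeber time in hours: points are libraries (ZT12 red, ZT0 dark, other times grey), with the mean and SD of 3 libraries per time. Tsc22d3, Dusp1, Il7r and Cd69 peak at ZT12, Cirbp and Rbm3 are low at ZT0 and ZT16, and Rsrp1 and Calr are lowest at ZT12.

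In VAT Tregs 8 genes passed for ZT12 against ZT0 (0.0503%), among them 2 of the 13, Tsc22d3 with a log2 fold change of 0.92 (edgeR adjusted p = 0.0494) and Serinc3 with 0.70 (edgeR adjusted p = 0.0454). The VAT change had the sign of the spleen change in 11 of the 13. The share over all genes is not given here. The 13 include Slc40a1, whose VAT level was too low for a reliable sign. The difference between the tissues was tested as an interaction, and 1 gene passed (0.00629%), Dusp1. Its VAT libraries had 7394, 5054 and 6726 CPM at ZT12, against 6765, 7017 and 6780.3 CPM at ZT0, so that VAT levels were far above spleen levels and overlapped between times. The VAT log2 fold change was -0.10 ± 0.16, and the spleen change exceeded it by 1.36 ± 0.24 (edgeR adjusted p = 0.0296). Passing was kept in 3 of 12 leave-outs, those without spleen ZT0 library B, spleen ZT12 library D or VAT ZT12 library A.

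For Xxylt1 and Cd69 the difference was 1.11 ± 0.33 and 0.73 ± 0.23, and neither passed (edgeR adjusted p = 0.467 and 0.468). Rbm3, Zfp36l2 and Serinc3 had similar estimates in VAT, at 0.48, 0.91 and 0.70. Slc40a1 was under 1.1 CPM in all 6 VAT libraries, which leaves its VAT change undetermined. Among clock genes, Arntl had a log2 fold change of -0.14 in spleen and -1.04 in VAT, where it passed (edgeR adjusted p = 0.0209). Tef had 0.27 in spleen and 1.31 in VAT, where it passed too (edgeR adjusted p = 0.0153), and Per2 had 0.55 in spleen and 3.20 in VAT (edgeR adjusted p = 0.0519). The difference between tissues did not pass the adjustment for any of these 3, although each was among the 1324 genes (8.32%) with an unadjusted p under 0.05 for it.

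**Figure D5:**
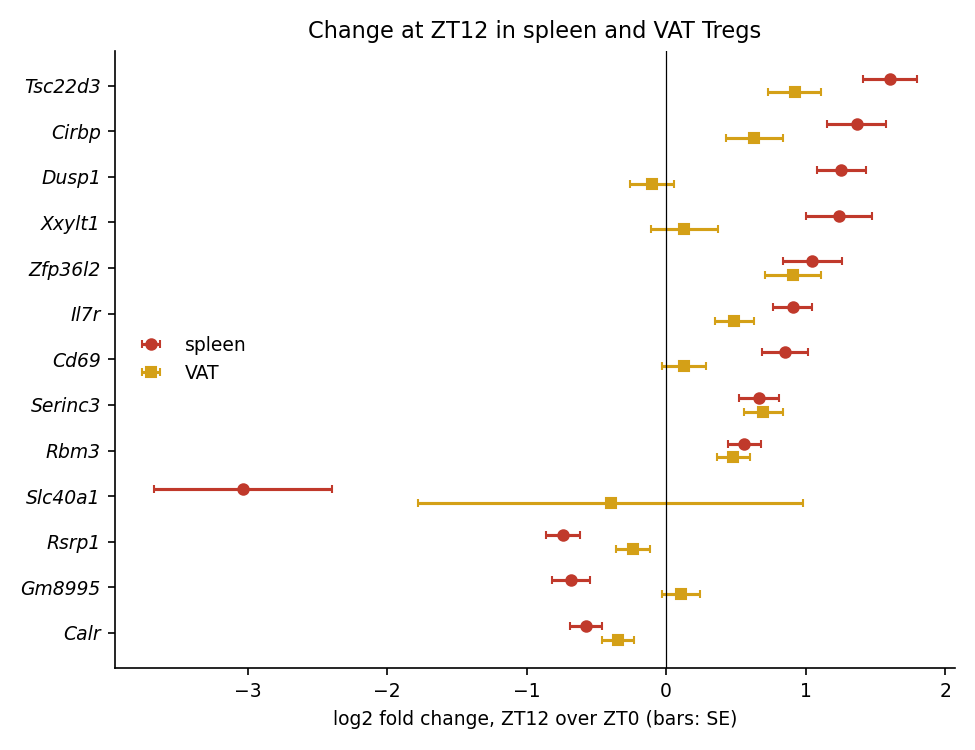
Log2 fold change, ZT12 over ZT0, with its SE, of the 13 called genes in spleen Tregs (circles, upper of each pair) and VAT Tregs (squares). Dusp1 lies at 1.26 in spleen and -0.10 in VAT, and Serinc3 and Rbm3 lie close together in both tissues.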

How the data were processed

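The deposited table holds raw read counts per gene; per the submitters' processing notes reads were aligned with STAR 2.7.3a to mm10 and counted with featureCounts, with version, annotation and strand setting not given in the sources used here. Per the labels' protocols, cDNA was primed with oligo(dT), amplified by PCR and sequenced in paired 25-base reads. There were no molecular identifiers, so PCR copies count as reads.

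All 35 libraries in 12 groups were fitted with edgeR 4.0.16 (R 4.3.3): filterByExpr, TMM scaling, robust quasi-likelihood fit, Benjamini-Hochberg over 15910 genes. An adjusted p under 0.05 was a call. The SE is the absolute log2 fold change over the root of F. Fits were tested on simulated data. Alternatives used DESeq2 1.42.0, other scalings, filters and sample sets, a replicate block and left-out libraries. A further one, the length covariate, was each library's slope on transcript length, computed from the same counts. Positions and transcript lengths are GENCODE M21 (GRCm38). Replicate libraries differed by more than counting noise, with a chi-square per gene of 4.79 to 8.47, so none was counted as a duplicate. With PCR copies counted as reads, this cannot tell separate preparations of the same animal from separate animals. By the same measure ZT12 library A was nearer to the ZT0 libraries (7.09 to 7.52) than to ZT12 libraries B (8.47) and D (7.87). An exact permutation test of 3 against 3 cannot go below 0.1.

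Named genes were the 15 largest called changes with a mean of at least 10 CPM and no overlap (with fewer than 5 called, the 10 of smallest p), all core clock genes, up to 4 called or 2 uncalled members per list, the 10 smallest p of the tissue difference among called genes, and Foxp3, Il2ra and Cd4; other list members named were chosen after their values were seen. A few genes the rule names are not reported here. Members and lists were chosen with earlier results of these data known.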

Additional observations from a re-analysis of the deposited data

Results flagged for a closer look

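The change of Dusp1 at ZT12 against ZT0 was larger in spleen than in VAT by 1.36 on the log2 scale, a difference between tissues that passed its own interaction test (edgeR adjusted p = 0.0296). Dusp1 rose in spleen in 3 of 3 ZT12 libraries relative to every ZT0 library, and its VAT libraries overlapped between the times. Its level averaged 140.2 CPM at ZT12 and 58.7 CPM at ZT0 in spleen Tregs, and 6391 CPM at ZT12 and 6854 CPM at ZT0 in VAT Tregs.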

How the results depend on the processing

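The count of 13 spleen genes became 25 with spleen libraries only, 166 with the 6 libraries only, 74 in DESeq2 (which gave an adjusted p to 4189 genes), 67 with no filter and 76 with the length covariate; fewer samples in the fit or other genes tested are part of these settings' construction, and the cause of the other shifts was not tested. It was 13 with RLE factors, 14 with library totals, 17 at a mean of 10 CPM, and 5 to 12 when 1 library was left out (5 without ZT0 A, ZT12 A or ZT12 B, 6 without ZT0 B or ZT0 C, 12 without ZT12 D). With the replicate letter as a block it was 9, losing Calr, Rbm3, Serinc3 and Zfp36l2; same-lettered libraries did not deviate together (r = 0.02 for A, -0.02 for B), and neither did the 6 same-lettered pairs of spleen and VAT libraries at these times (r = -0.04 to 0.01), so the letters were not taken as pairs. All 13 genes kept their direction in all 15 alternatives, and Tsc22d3, Dusp1, Cirbp and Il7r passed in each. The count of 1 gene for the difference between tissues became 2 with 12 libraries only, 11 in DESeq2 and 28 with no filter, and 0 to 5 with 1 library left out. Levels of a few CPM rest on few reads, such as the 4, 5 and 22 reads of Slc40a1 at ZT12.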

Other observations

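Several signalling genes outside the groups described above had ZT12 and ZT0 libraries that did not overlap, without passing in edgeR. Nfkbia, the inhibitor that ends NF-kB signals, averaged 809 ± 57.1 CPM at ZT12 and 558 ± 11.3 CPM at ZT0 (edgeR adjusted p = 0.203). Cflar, an inhibitor of caspase-8 activation, averaged 180.2 ± 11.9 CPM at ZT12 and 258 ± 18.8 CPM at ZT0 (edgeR adjusted p = 0.201). Ptprc, the phosphatase CD45, averaged 2191 ± 148 CPM at ZT12 and 2824 ± 127 CPM at ZT0. Ccr8, a chemokine receptor of effector Tregs, averaged 38.9 ± 12.1 CPM at ZT12 and 16.01 ± 0.63 CPM at ZT0, and Ctsl, a lysosomal protease, averaged 17.4 ± 5.24 CPM at ZT12 and 5.70 ± 2.39 CPM at ZT0. None of the 8 GIMAP genes, GTPases of lymphocytes, passed, and Gimap8 averaged 213 ± 17.1 CPM at ZT12 and 293 ± 11.0 CPM at ZT0. Il7r was the only call among 14 resting Treg genes, and Calr the only one among 14 genes of MHC class I presentation. In edgeR no gene passed in the trafficking receptor (20 tested), T cell receptor signalling (22), NF-kB (16), autophagy and lysosome (19) or cell survival and death (14) lists. At an unadjusted p under 0.05 these 5 lists had 3, 2, 4, 2 and 1 members, in that order, and the GIMAP list had 1, where the share of all genes was 4.62% higher and 3.38% lower. DESeq2 called 1 of 18 trafficking receptors and 1 of 9 cell survival genes with an adjusted p, against 74 of 4189 among all genes. It called none of the members with an adjusted p in the T cell receptor, NF-kB, autophagy and GIMAP lists.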
